A study of Mus musculus with 6 samples.

Results

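Genes named by symbol as protein subunits of the mitochondrial ribosome were read in sorted cells of the mouse calvarial suture, the fibrous joint between the bones of the skull roof. The members were all array features that carry exactly 1 gene symbol beginning with Mrpl or Mrps and a number, and for a gene with several such features the one with the highest mean over all 6 samples was used. This gave 77 genes of the 19938 tested, 48 with a large subunit symbol and 29 with a small subunit symbol. The arrays held 3 samples of Axin2+/GFP+ cells, which the study's text calls Axin2+/GFPhi, and 3 samples of Axin2-/GFP- cells. Both populations came from mice carrying the Axin2rtTA and TRE-H2BGFP transgenes on a mixed background of C57BL/6J, CD-1 and B6CBAF2, so that under doxycycline a histone-GFP fusion marks cells in which the Axin2 locus is active. All mice received doxycycline from postnatal day 25 until postnatal day 28, when suture cells were released by collagenase and separated by their GFP signal, and each sample pooled the cells of 6 to 8 mice. GFP is the marker that the study's text gives for this sort, so the populations are defined by Axin2 activity over those days and can hold several cell types.

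The mitochondrial ribosome translates the few messages encoded in mitochondrial DNA, most of them for subunits of the respiratory chain. Its RNA is made in the mitochondrion, but all of its proteins are encoded in the nucleus, made in the cytosol and imported. The small subunit reads the message, the large subunit joins the amino acids and releases the chain at the inner membrane, and many of the proteins on both have no bacterial counterpart.

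The deposited values are on the log2 scale, 1 array per sample, and a change below is the mean of Axin2+/GFP+ cells minus the mean of Axin2-/GFP- cells on that scale. The columns did not share 1 distribution, with upper quartiles of 3.72 to 3.76 for Axin2+/GFP+ and 3.97 to 4.0 for Axin2-/GFP-. The change moved with signal over all genes, with a median of 0.24 for genes with a mean log2 value of 2 to 3, -0.04 for those at 3 to 4, -0.51 at 4 to 5 and -0.57 at 5 or more. As a reading of background, 95% of 1190 olfactory and vomeronasal receptor genes lay below 3.0 in Axin2+/GFP+ cells and below 2.73 in Axin2-/GFP- cells. Of the 77 members, 58 lay above this receptor level in Axin2+/GFP+ cells and 75 in Axin2-/GFP- cells. Axin2 itself had a change of 0.55 (limma adjusted p = 0.0802), with no overlap between the groups.

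Mitochondrial ribosomal protein genes read mostly lower in Axin2+/GFP+ cells, but few of them passed the test. Of the 77 members 13 fell, 0 rose and 64 did not pass an adjusted p of 0.05 in limma (empirical Bayes linear models), while over all genes tested 11.4% were called lower and 4.64% higher. At an unadjusted p under 0.05, limma gave 28 lower and 0 higher (17.6% and 16.3% of all genes), and the methods' t-test gave 19 lower and 1 higher (13.8% and 14.8% of all genes). After adjustment the methods' t-test called 0 members, against 2.6% of all genes as lower and 1.06% as higher. The sign was negative for 65 of the 77, and the median change was -0.42, against 0.14 over all genes. Every Axin2+/GFP+ sample lay below every Axin2-/GFP- sample for 26 members (17.8% of all genes) and above for 1 (23.1% of all genes). The number of members that fell moved with the scaling, with 7 after quantile normalization and 33 when the arrays were centred on the receptor genes, and it was 6, 8 and 7 without Axin2-/GFP- replicates 1, 2 and 3. In bulk RNA, fewer cells of a type that carries a transcript and less of that transcript per cell cannot be told apart.

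In limma on all 6 samples the share called lower was above that of all genes, but below that of genes of like signal in 3 of 4 signal ranges. Of the 30 members with a mean log2 value of 4 to 5, 6 were called lower, a share of 20%, against 33.1% of all genes in that range. Of the 32 members at 3 to 4, 3 were called lower, a share of 9.38%, against 13.8%. Of the 11 members at 2 to 3, 3 were called lower, a share of 27.3%, against 2.57%. The medians of the members in these ranges, from dim to bright, were -0.44, -0.34 and -0.53. The dimmer members thus had a median below that of all genes at their signal, and the members at 4 to 5 had nearly the median of that range. Only 4 members had a mean of 5 or more, and 1 of them was called lower, against 36.4% of all genes there.

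**Figure D1:**
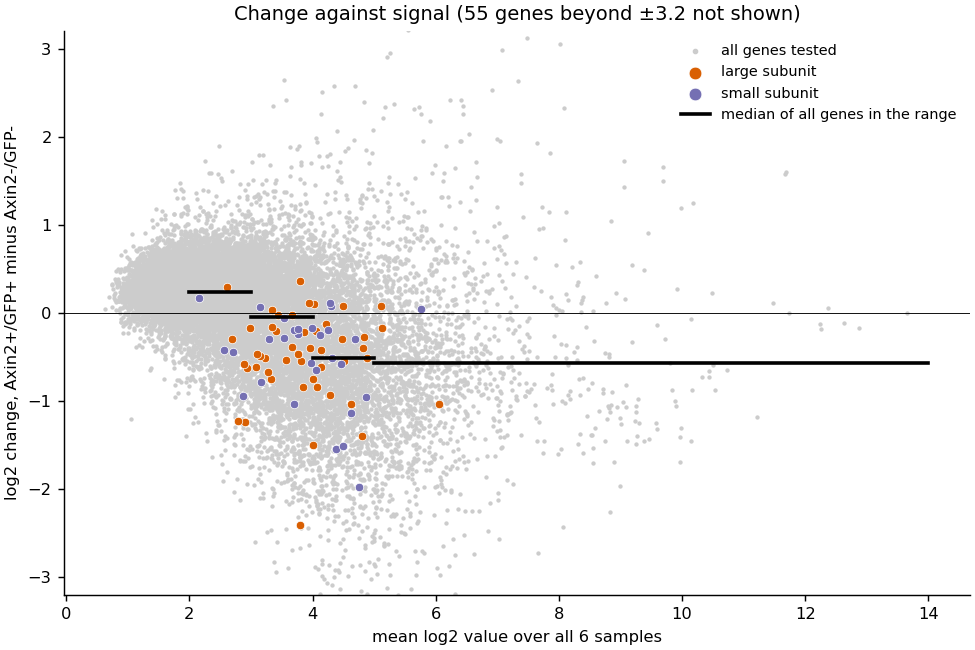
The log2 change, Axin2+/GFP+ minus Axin2-/GFP-, is plotted against the mean log2 value over all 6 samples, with grey points for all genes tested, orange and violet points for large and small subunit genes, and black bars for the median of all genes in a signal range. The members at 4 to 5 spread around the median of that range, -0.51, and most members at 2 to 4 lie below the bars.

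The subunits were alike in the share called lower, 16.7% for the large and 17.2% for the small. Of the 48 large subunit genes 8 fell, with a median change of -0.47 and a range of -2.40 to 0.36. Of the 29 small subunit genes 5 fell, with a median of -0.30 and a range of -1.98 to 0.17. The proteins of Mrps18a and Mrps30 are known to sit in the large subunit in spite of their symbols, and with both counted there the medians were -0.48 and -0.29. In that count all other members were placed by symbol alone. The median log2 value of the large subunit genes was 3.42, 3.56 and 3.62 in Axin2+/GFP+ replicates 1 to 3, against 4.07, 3.99 and 3.94 in the Axin2-/GFP- replicates. That of the small subunit genes was 3.59, 3.61 and 3.70 in Axin2+/GFP+ replicates 1 to 3, against 4.15, 4.22 and 4.07 in the Axin2-/GFP- replicates. For both subunits every Axin2+/GFP+ sample had a lower median than every Axin2-/GFP- sample. The same held for all genes with a mean log2 value of 3 to 4 (3.34 to 3.41 against 3.47 to 3.49). It held also for all genes at 4 to 5 (4.11 to 4.23 against 4.67 to 4.73) and at 5 or more. All genes at 2 to 3, and all genes together, had the higher medians in Axin2+/GFP+ samples. The difference between the subunits was not tested.

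**Figure D2:**
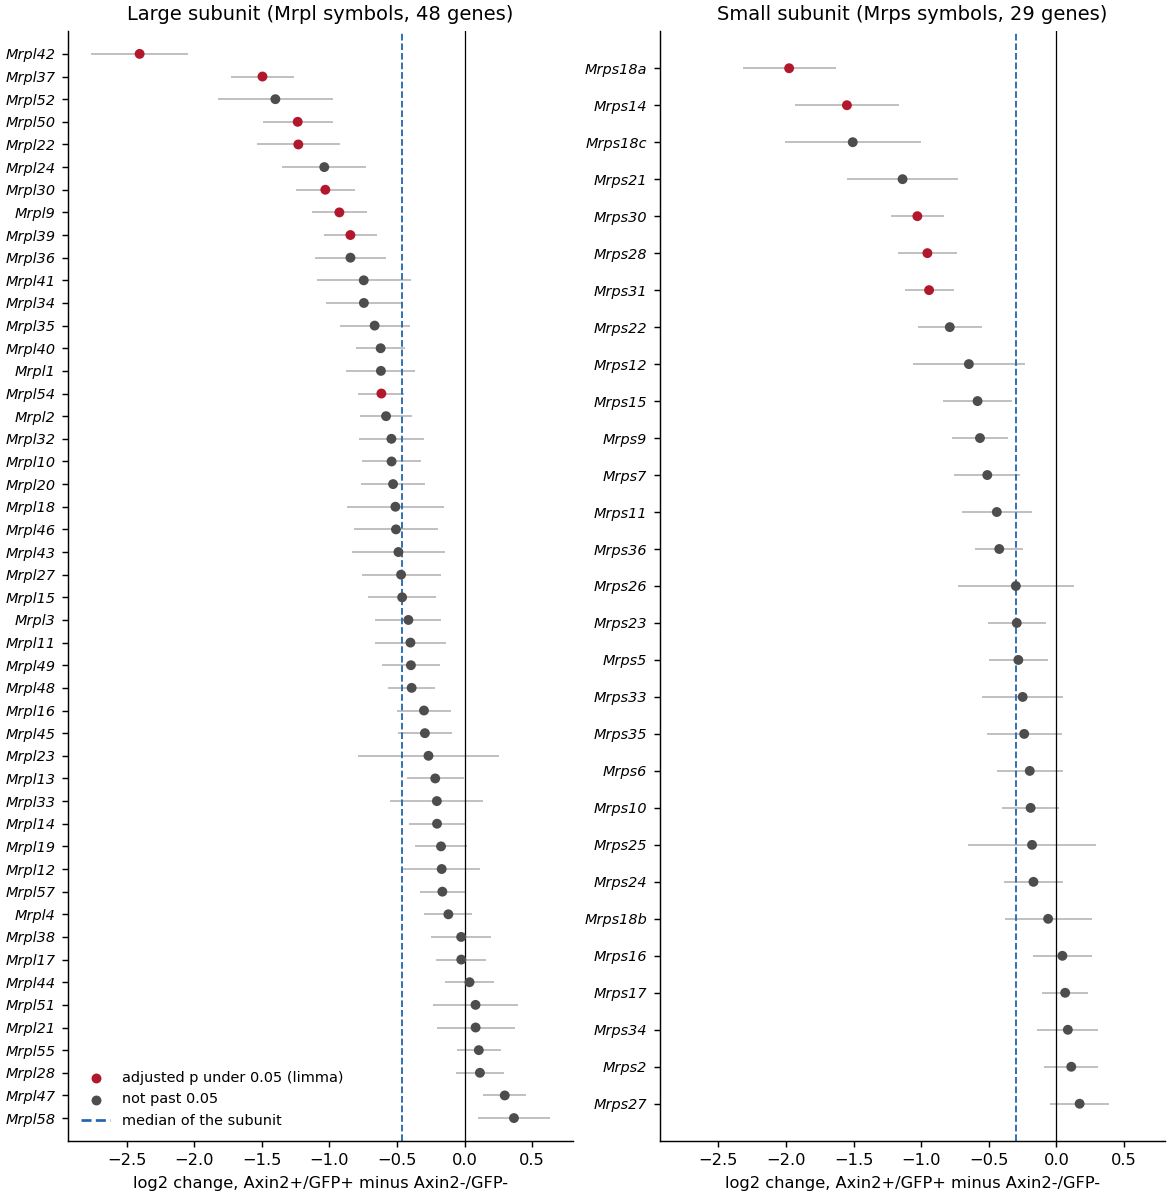
The log2 change of each member, Axin2+/GFP+ minus Axin2-/GFP-, is plotted with its standard error (SE) from limma (whiskers), large subunit genes on the left and small subunit genes on the right. Red points passed an adjusted p of 0.05, and the dashed lines mark the medians of -0.47 and -0.30.

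Of the 13 genes that fell, 5 kept an adjusted p under 0.05 under every alternative that tested them except the methods' t-test. Mrpl42, a large subunit protein without a bacterial counterpart, had the largest fall among the members in limma. It was read at 3.32, 2.27 and 2.20 in Axin2+/GFP+ cells and at 4.83, 5.61 and 4.56 in Axin2-/GFP- cells. Its Axin2+/GFP+ mean of 2.60 ± 0.63 (SD, n = 3) lay under the receptor level, and that of Axin2-/GFP- cells was 5.0 ± 0.54 (SD, n = 3). In limma the change was -2.40 (standard error, SE, 0.36, adjusted p = 0.00345).

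Mrps18a, the member of the Mrps18 family whose protein sits in the large subunit, was read at 3.04, 4.54 and 3.70 in Axin2+/GFP+ cells and at 5.99, 5.71 and 5.51 in Axin2-/GFP- cells. The Axin2+/GFP+ samples were far apart and all lay below the Axin2-/GFP- samples, with a change of -1.98 (SE 0.34, limma adjusted p = 0.00671). Mrpl37 and Mrps30 encode related proteins of the large subunit that are particular to mitochondria. Mrpl37 was read at 3.51, 2.81 and 3.45 in Axin2+/GFP+ cells and at 4.52, 4.75 and 4.98 in Axin2-/GFP- cells, a change of -1.50 (SE 0.23, limma adjusted p = 0.00423). Mrps30 was read at 2.91, 3.31 and 3.36 in Axin2+/GFP+ cells and at 4.05, 4.22 and 4.40 in Axin2-/GFP- cells, a change of -1.03 (SE 0.19, limma adjusted p = 0.00942). In both genes the populations did not overlap. The SD (n = 3 each) was 0.39 in Axin2+/GFP+ cells and 0.23 in Axin2-/GFP- cells for Mrpl37, and 0.25 and 0.18 for Mrps30.

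Mrps31, a small subunit protein particular to mitochondria, was read at 2.36, 2.66 and 2.20 in Axin2+/GFP+ cells and at 3.25, 3.39 and 3.40 in Axin2-/GFP- cells. The change was -0.94 (SE 0.18, limma adjusted p = 0.0104), with the Axin2+/GFP+ samples under the receptor level. Over the alternatives, the change ran from -2.77 to -2.10 for Mrpl42, from -2.37 to -1.48 for Mrps18a, from -1.81 to -1.19 for Mrpl37, from -1.35 to -0.83 for Mrps30 and from -1.26 to -0.84 for Mrps31. In the methods' t-test their adjusted p ran from 0.0580 for Mrps31 to 0.0949 for Mrps18a.

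The other 8 falls were smaller or less steady. Mrpl50, a further large subunit protein particular to mitochondria, was read at 2.54, 2.04 and 2.29 in Axin2+/GFP+ cells and at 3.67, 3.0 and 3.91 in Axin2-/GFP- cells, a change of -1.23 (limma adjusted p = 0.0150). Mrpl22, whose bacterial counterpart lines the tunnel through which the new chain leaves, was read at 2.71, 1.62 and 2.18 in Axin2+/GFP+ cells and at 3.72, 2.93 and 3.54 in Axin2-/GFP- cells, a change of -1.23 (limma adjusted p = 0.0300). Both genes were below the receptor level in Axin2+/GFP+ cells. Their calls ended without Axin2-/GFP- replicate 1 or 3, and that of Mrpl22 also without Axin2+/GFP+ replicate 2 or 3.

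Mrps14, a small subunit protein with a bacterial counterpart, was read at 3.56, 2.79 and 4.48 in Axin2+/GFP+ cells and at 5.27, 4.83 and 5.37 in Axin2-/GFP- cells. Its change was -1.55 (SE 0.38, limma adjusted p = 0.0281), and the call ended under quantile normalization, cyclic loess and the removal of Axin2+/GFP+ replicate 1 or of any 1 Axin2-/GFP- replicate. Mrpl30 and Mrpl9 are large subunit proteins with bacterial counterparts. Mrpl30 was read at 5.15, 5.92 and 5.56 in Axin2+/GFP+ cells and at 6.45, 6.64 and 6.63 in Axin2-/GFP- cells, a change of -1.03 (limma adjusted p = 0.0157). Mrpl9 was read at 4.16, 3.60 and 3.69 in Axin2+/GFP+ cells and at 4.81, 4.85 and 4.57 in Axin2-/GFP- cells, a change of -0.93 (limma adjusted p = 0.0172). The Axin2-/GFP- replicates of both lay close together and above every Axin2+/GFP+ sample.

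Mrps28, a small subunit protein, was read at 4.0, 4.47 and 4.69 in Axin2+/GFP+ cells and at 5.40, 5.51 and 5.12 in Axin2-/GFP- cells, a change of -0.95 (limma adjusted p = 0.0219). The calls of Mrpl30, Mrpl9 and Mrps28 ended under quantile normalization and cyclic loess, where the changes were nearer 0, and without Axin2-/GFP- replicate 2. They ended also without Axin2-/GFP- replicate 3 for Mrpl30 and without Axin2-/GFP- replicate 1 for Mrpl9 and Mrps28. Mrpl39, a large subunit protein that resembles an aminoacyl-tRNA synthetase, had a change of -0.84 (limma adjusted p = 0.0227) and was called in 8 of 16 alternatives. Mrpl54, a large subunit protein, had a change of -0.62 (limma adjusted p = 0.0423) and was called in 5 of 16. Both were named after their values were seen, to complete the 13. The 13 genes lie on 9 chromosomes, and the 77 members on 17.

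**Figure D3:**
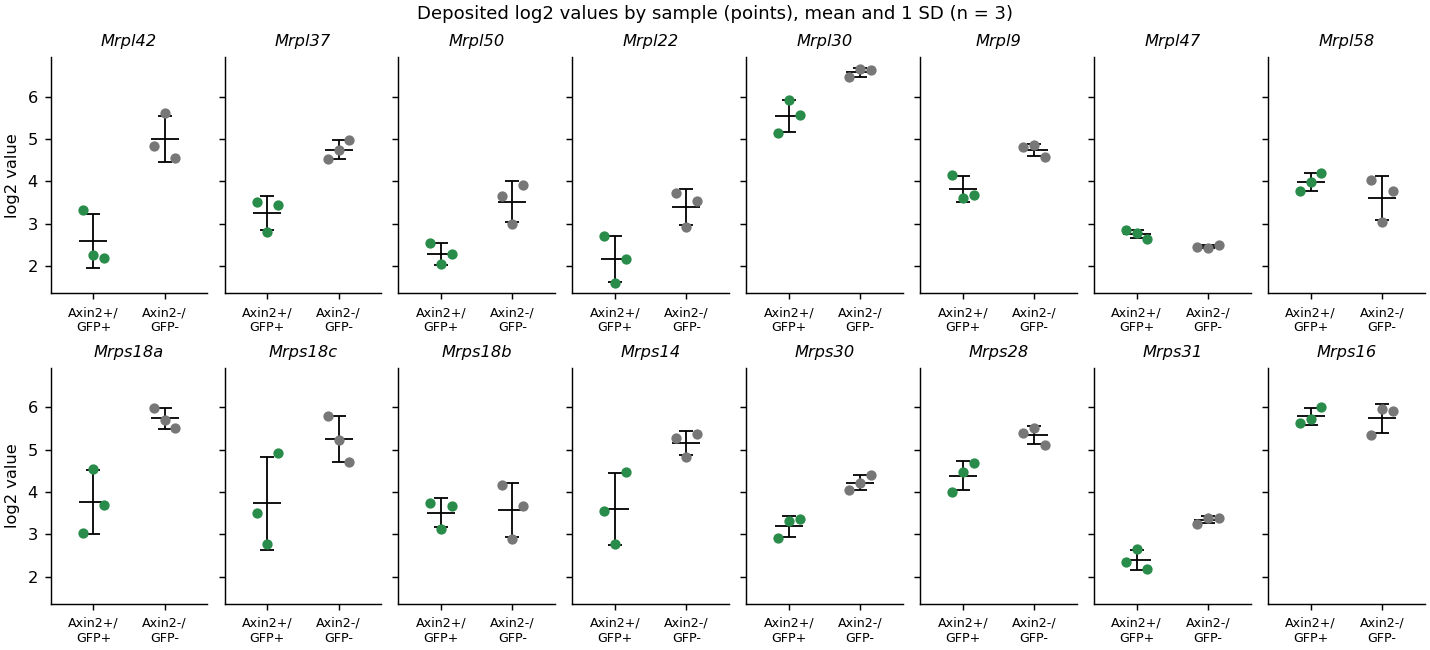
Deposited log2 values of 16 members are plotted by sample, Axin2+/GFP+ in green on the left of each panel and Axin2-/GFP- in grey on the right, with the mean and 1 SD (n = 3 each). The populations do not overlap for the 11 genes from the called set or for Mrpl47, and overlap for Mrpl58, Mrps18c, Mrps18b and Mrps16.

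Some members had large changes that did not pass, and 3 of these were named after their values were seen. Mrpl52, a large subunit protein particular to mitochondria, was read at 3.66, 5.18 and 3.45 in Axin2+/GFP+ cells and at 5.82, 5.11 and 5.55 in Axin2-/GFP- cells, a change of -1.40 (limma adjusted p = 0.0563). Mrpl24, with a bacterial counterpart, was read at 3.35, 4.26 and 4.69 in Axin2+/GFP+ cells and at 4.99, 5.17 and 5.24 in Axin2-/GFP- cells, a change of -1.04 (limma adjusted p = 0.0547). Mrps21, a small subunit protein with a bacterial counterpart, was read at 5.11, 3.87 and 3.2 in Axin2+/GFP+ cells and at 5.14, 5.17 and 5.29 in Axin2-/GFP- cells, a change of -1.14 (limma adjusted p = 0.0924). In each gene 1 Axin2+/GFP+ sample lay near the Axin2-/GFP- samples, and the gene was called without that sample, which was replicate 2 for Mrpl52, replicate 3 for Mrpl24 and replicate 1 for Mrps21.

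No member rose. Mrpl58, which descends from a release factor and frees chains from stalled ribosomes, had the highest change. It was read at 3.77, 3.98 and 4.19 in Axin2+/GFP+ cells and at 4.03, 3.04 and 3.78 in Axin2-/GFP- cells, a change of 0.36 (95% confidence interval -0.24 to 0.97, limma adjusted p = 0.347). Mrpl47, a large subunit protein with a bacterial counterpart, was the 1 member whose Axin2+/GFP+ samples all lay higher. Its values were 2.84, 2.78 and 2.65 in Axin2+/GFP+ cells and 2.46, 2.44 and 2.49 in Axin2-/GFP- cells, below the receptor level in both, with a change of 0.30 (limma adjusted p = 0.216). That difference is the size of the shift of the receptor genes, whose median change was 0.30, and centred on those genes it was -0.02.

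Among small subunit genes the highest changes were those of Mrps27 and Mrps2. Mrps27, a protein with the repeats found in many RNA-binding proteins of organelles, had a change of 0.17 (95% confidence interval -0.32 to 0.66). Mrps2, with a bacterial counterpart, had a change of 0.11 (95% confidence interval -0.34 to 0.56). Neither passed the test, and both turned negative when the arrays were centred on the receptor genes.

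Of the members with the highest mean signal in each subunit, Mrpl30, Mrps28 and Mrps18a fell, as given above. The others, Mrps16, Mrpl21 and Mrpl12, had changes nearer 0. Mrps16, a small subunit protein with a bacterial counterpart, was read at 5.62, 5.72 and 6.01 in Axin2+/GFP+ cells and at 5.35, 5.95 and 5.91 in Axin2-/GFP- cells. The groups overlapped, and the change of 0.04 had a 95% confidence interval of -0.45 to 0.54. Mrpl21, a large subunit protein with a bacterial counterpart, was read at 5.19, 5.01 and 5.24 in Axin2+/GFP+ cells and at 5.70, 4.49 and 5.01 in Axin2-/GFP- cells, a change of 0.08 (95% confidence interval -0.57 to 0.74). Mrpl12, of the stalk that recruits translation factors and also known to bind the mitochondrial RNA polymerase, was read at 5.39, 5.27 and 4.47 in Axin2+/GFP+ cells and at 5.26, 5.55 and 4.83 in Axin2-/GFP- cells. Its change was -0.17 (95% confidence interval -0.82 to 0.48), which still allows a fall of the size seen in Mrpl54. Mrpl44, a large subunit protein with the fold of an RNase, had a change of 0.04 (95% confidence interval -0.37 to 0.44), which does not reach the fitted falls of the 13 called genes.

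Mrps12, whose bacterial counterpart lies at the site where the message is decoded, showed how far replicates could differ. It was read at 3.76, 2.78 and 4.66 in Axin2+/GFP+ cells and at 4.15, 4.29 and 4.71 in Axin2-/GFP- cells. The Axin2+/GFP+ samples were far apart, and the highest of them lay above 2 of the 3 Axin2-/GFP- samples. The change of -0.65 had an SE of 0.41 (limma adjusted p = 0.291).

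Spread between replicates was of the same order in both populations. The median SD of a member was 0.32 in Axin2+/GFP+ cells and 0.29 in Axin2-/GFP- cells (n = 3 each), against 0.26 and 0.19 over all genes. The SD was larger in Axin2+/GFP+ cells for 45 of the 77 members, a share of 58.4%, against 64.5% of all genes. Within the Axin2+/GFP+ cells replicate 1 was the lowest for 29 members, replicate 2 for 27 and replicate 3 for 21, and within the Axin2-/GFP- cells the counts for replicates 1, 2 and 3 were 23, 25 and 29. No 1 replicate held most of the low readings.

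The Mrps18 genes are a family of 3 paralogues in mammals, and their proteins take different places in the ribosome. That of Mrps18a sits in the large subunit, and those of Mrps18b and Mrps18c in the small subunit, where Mrps18c stands for the bacterial protein. Mrps18c was read at 3.51, 2.77 and 4.93 in Axin2+/GFP+ cells and at 5.80, 5.22 and 4.71 in Axin2-/GFP- cells. Its change of -1.51 (SE 0.50, limma adjusted p = 0.0742) did not pass. Axin2+/GFP+ replicate 3 lay above Axin2-/GFP- replicate 3, and without that Axin2+/GFP+ sample the change was -2.10 (limma adjusted p = 0.00937). Mrps18b was read at 3.74, 3.12 and 3.68 in Axin2+/GFP+ cells and at 4.16, 2.89 and 3.67 in Axin2-/GFP- cells, a change of -0.06 (95% confidence interval -0.79 to 0.67).

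The change of Mrps18a was lower than that of Mrps18b by a difference of -1.92 (SE 0.70), and every Axin2+/GFP+ sample had a smaller within-sample difference than every Axin2-/GFP- sample (p = 0.1 in a two-sided exact permutation, the lowest value 3 samples a group can give, and 0.3 adjusted over 3 pairs). The difference was -1.45 (SE 0.63) between Mrps18c and Mrps18b (p = 0.2 in a two-sided exact permutation, 0.3 adjusted) and -0.47 (SE 0.92) between Mrps18a and Mrps18c (p = 0.7 in a two-sided exact permutation, 0.7 adjusted). With 3 samples in a group no pair could pass 0.05, so these are sizes and not calls. The 120 bases before the RefSeq start of each paralogue are given below, with those of Mrpl42, the member of lowest change (GRCm38.p6, each written 5′ to 3′ in the direction of the gene). Whether these bases drive the genes in suture cells was not tested. Capitals mark CCGGAAG, 1 form of the ETS factor motif. Only this exact string was searched for, and shorter or other forms of the motif were not.
Mrps18a, chr17:46110884-46111003, plus strand: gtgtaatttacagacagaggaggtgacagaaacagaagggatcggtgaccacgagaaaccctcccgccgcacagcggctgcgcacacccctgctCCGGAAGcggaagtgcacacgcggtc
Mrps18c, chr5:100798639-100798758, plus strand: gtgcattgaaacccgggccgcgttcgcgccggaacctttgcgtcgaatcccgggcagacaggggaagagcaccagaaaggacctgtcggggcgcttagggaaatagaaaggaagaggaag
Mrps18b, chr17:35916441-35916560, minus strand: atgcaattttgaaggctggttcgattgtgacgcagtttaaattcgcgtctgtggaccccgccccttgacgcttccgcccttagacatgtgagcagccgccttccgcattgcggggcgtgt
Mrpl42, chr10:95501950-95502069, minus strand: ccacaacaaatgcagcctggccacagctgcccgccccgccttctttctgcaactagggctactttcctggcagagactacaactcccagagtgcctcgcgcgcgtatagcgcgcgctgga

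The string CCGGAAG stood in these 120 bases of Mrps18a and, on either strand, not in those of Mrps18c, Mrps18b or Mrpl42. Wider windows, of 250 bases before to 50 bases after the start, were searched on both strands. In these CCGGAAG was also found for Mrps18c, upstream of the bases shown, and for Mrps18b, after the start. It was thus not particular to Mrps18a among the paralogues, and it was not found for Mrpl42. RefSeq entries for such windows matched 68 of the 77 members, all but Mrpl4, Mrpl13, Mrpl15, Mrpl19, Mrpl38, Mrpl54, Mrps28, Mrps34 and Mrps35. CCGGAAG was in 24 of the 68, a share of 35.3%, against 9.12% of 27025 promoters of all genes and 11.9% of 17492 promoters of protein-coding genes. AAGATGGC, the core of the YY1 motif, was in 12, a share of 17.6%, against 2.88% and 3.22%, and GCATGCGC, part of the NRF1 motif, was in 8, a share of 11.8%, against 2.80% and 3.61%. The letters of these motifs can overlap, since CCGGAAG ends as AAGATGGC begins and AAGATGGC ends as GCATGCGC begins, but in 0 of the 68 windows did matches to different motifs share bases. Each window starts from 1 RefSeq transcript start of the gene, which need not be its outermost.

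Each motif was found both among members that fell and among members that were not called. CCGGAAG was in 2 of 11 members that fell and in 22 of 57 that were not called. AAGATGGC was in 3 of the 11, which were Mrpl37, Mrpl42 and Mrps18a, and in 9 of the 57. GCATGCGC was in 3 of the 11, Mrpl9, Mrpl22 and Mrpl39, and in 5 of the 57. These matches are a description of letters and not of bound sites.

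For 8 members the array had 2 features. Those of Mrpl41, a large subunit protein, gave changes of -0.75 at the brighter feature and -0.09 at the other. Those of Mrps5, a small subunit protein with a bacterial counterpart, gave -0.28 and 0.30, and those of Mrpl47 gave 0.30 and -0.17. No feature of these genes passed the test, and the sources used here do not give which feature lies in the gene itself. The other 5 members with 2 features had the same sign in both. A feature that carries the symbols of Mrpl53 and Ccdc142 together was left out.

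Of 5 other lists of mitochondrial translation, that headed translation factors had the lowest median and the largest share called lower. This list was drawn widely and also holds Lrpprc, Slirp and Oxa1l, whose work, given below, is not that of a translation factor. They are among its 5 called genes, the others being Guf1 and Mtif2, and the rank by share rests on their inclusion. Of the 15 genes of this list 5 fell and 0 rose, a share of 33.3% lower, against 11.4% lower and 4.64% higher over all genes. Their median change was -0.64, against 0.14 over all genes, and at an unadjusted p under 0.05 limma gave 9 lower and 1 higher, against 17.6% and 16.3% of all genes. Lrpprc, which with Slirp keeps mitochondrial messages stable, was read at 3.03, 3.0 and 2.93 in Axin2+/GFP+ cells and at 3.84, 4.43 and 3.99 in Axin2-/GFP- cells. Its change of -1.10 (SE 0.20, limma adjusted p = 0.00729) was called under each of the 16 alternatives except the methods' t-test. Slirp, named after its values were seen, had a change of -1.18 (limma adjusted p = 0.0311). Guf1, a GTPase related to elongation factors, had a change of -0.86 (adjusted p = 0.0141), and Mtif2, the initiation factor that brings the first tRNA, of -0.85 (adjusted p = 0.0193), both from limma. The call of Guf1 ended without Axin2-/GFP- replicate 1 or 3, and that of Mtif2 without Axin2-/GFP- replicate 2 or 3. Oxa1l, which inserts new chains into the inner membrane, had a change of -1.33 (limma adjusted p = 0.0476) and was likewise named after its values were seen. The calls of Slirp and Oxa1l ended without either of Axin2-/GFP- replicates 1 and 2 and without Axin2+/GFP+ replicate 1, among other alternatives. In Axin2+/GFP+ cells the means of Lrpprc, Slirp, Guf1 and Mtif2 lay under the receptor level, at 2.99, 2.90, 2.55 and 2.64, and that of Oxa1l above it.

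Of 24 factors that assemble the mitochondrial ribosome or modify its RNA, 1 rose and 1 fell, 4.17% each, against 4.64% higher and 11.4% lower over all genes, with a median of -0.22. The 1 that rose was Rbfa, which acts in the maturation of the small subunit. It was read at 5.98, 5.26 and 5.42 in Axin2+/GFP+ cells and at 4.58, 4.38 and 4.40 in Axin2-/GFP- cells, all Axin2+/GFP+ samples being higher. The change of 1.10 (SE 0.22, limma adjusted p = 0.0119) was against the sign of most of the list, and the call ended without Axin2-/GFP- replicate 2. Mettl17, which also acts in the assembly of the small subunit, fell by 0.71 (limma adjusted p = 0.0275). The call ended without Axin2+/GFP+ replicate 1 or 3 and without any 1 Axin2-/GFP- replicate, and the Axin2+/GFP+ mean lay just under the receptor level. C1qbp, a matrix protein that binds RNA, had a change of -0.90 (limma adjusted p = 0.0524).

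Of 4 ribosomal proteins that carry other symbols 1 fell, a share of 25%, against 11.4% of all genes. This was Gadd45gip1, of the large subunit. It was read at 2.89, 3.13 and 3.44 in Axin2+/GFP+ cells and at 4.10, 4.34 and 4.04 in Axin2-/GFP- cells, a change of -1.0 (SE 0.20, limma adjusted p = 0.0114), and the call ended without Axin2-/GFP- replicate 2. The small subunit proteins Ptcd3, Chchd1 and Dap3 had changes of -0.43, -0.22 and 0.20 and did not pass.

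Of 19 mitochondrial aminoacyl-tRNA enzymes, which load tRNAs with their amino acids, 1 fell and 0 rose, a share of 5.26% lower, against 11.4% of all genes, with a median of -0.17. The gene was Fars2, the phenylalanine enzyme, with a change of -0.80 (limma adjusted p = 0.0260). The call was lost without Axin2+/GFP+ replicate 3 and without Axin2-/GFP- replicate 1 or 3, and the Axin2+/GFP+ mean of 2.72 lay under the receptor level. Wars2, the tryptophan enzyme, had a change of -0.42 (adjusted p = 0.107) and Pars2, the proline enzyme, of 0.56 (adjusted p = 0.104). Of 14 genes that copy mitochondrial DNA or make and process its RNA, 3 fell and 0 rose, a share of 21.4% lower, against 11.4% of all genes, with a median of -0.23. Tfam, which packs mitochondrial DNA and starts its transcription, had a change of -1.22 (limma adjusted p = 0.0328). It was read at 2.39, 1.95 and 1.17 in Axin2+/GFP+ cells and at 3.04, 2.74 and 3.41 in Axin2-/GFP- cells. The Axin2+/GFP+ mean of 1.84 lay near the median of the receptor genes there, 1.80. Ssbp1, which binds single-stranded mitochondrial DNA, had a change of -1.0 (adjusted p = 0.0480), and Pnpt1, an RNA-degrading enzyme, of -0.63 (adjusted p = 0.0484). All 3 calls ended without any 1 Axin2-/GFP- replicate, and also without Axin2+/GFP+ replicate 2 or 3 for Tfam and without Axin2+/GFP+ replicate 1 or 2 for Ssbp1 and Pnpt1. Ssbp1 and Pnpt1 were each called in only 5 of 16 alternatives. Their calls ended also under an intensity trend, a replicate block, quantile normalization and cyclic loess. That of Pnpt1 ended also under array weights, and that of Ssbp1, which has 2 features, also under the mean of its features.

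**Figure D4:**
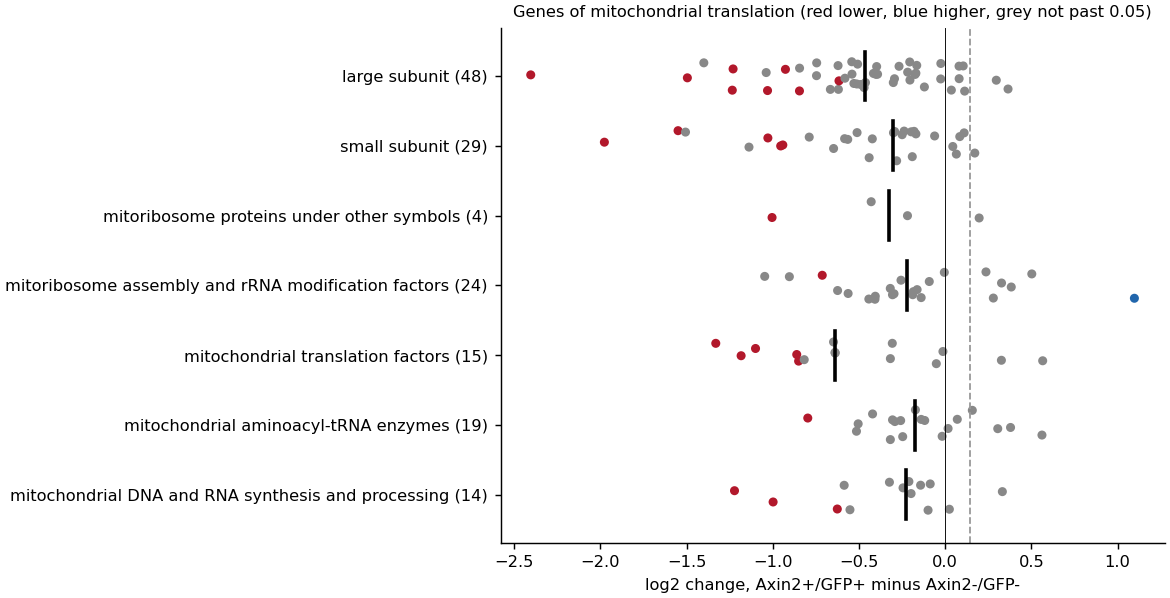
The log2 change, Axin2+/GFP+ minus Axin2-/GFP-, is plotted for each gene of the subunits and of 5 other lists of mitochondrial translation, with the number of genes in brackets, a black bar at each median and a dashed line at the median of all genes, 0.14. The list of translation factors, which includes Lrpprc, Slirp and Oxa1l, has the lowest median, -0.64, and Rbfa at 1.10 is the 1 gene that rose.

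Of 3 lists of many subunits, that of the mitochondrial ribosome had the lowest share of calls. Of 60 genes for proteins of the cytosolic ribosome, 49 fell and 0 rose, a share of 81.7%, with a median change of -1.06. Of 81 nuclear genes for subunits of oxidative phosphorylation, 22 fell and 0 rose, a share of 27.2%, with a median of -0.66. Over all genes 11.4% were called lower and 4.64% higher. Of genes with a mean log2 value of 5 or more 36.4% were called lower, with a median of -0.57. The share of the oxidative phosphorylation list was below that of these brighter genes. The lists differ in signal, with a median log2 value of 3.87 for the mitochondrial ribosomal proteins, 8.79 for the cytosolic ribosome and 5.27 for oxidative phosphorylation, and the differences between lists were not tested.

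**Figure D5:**
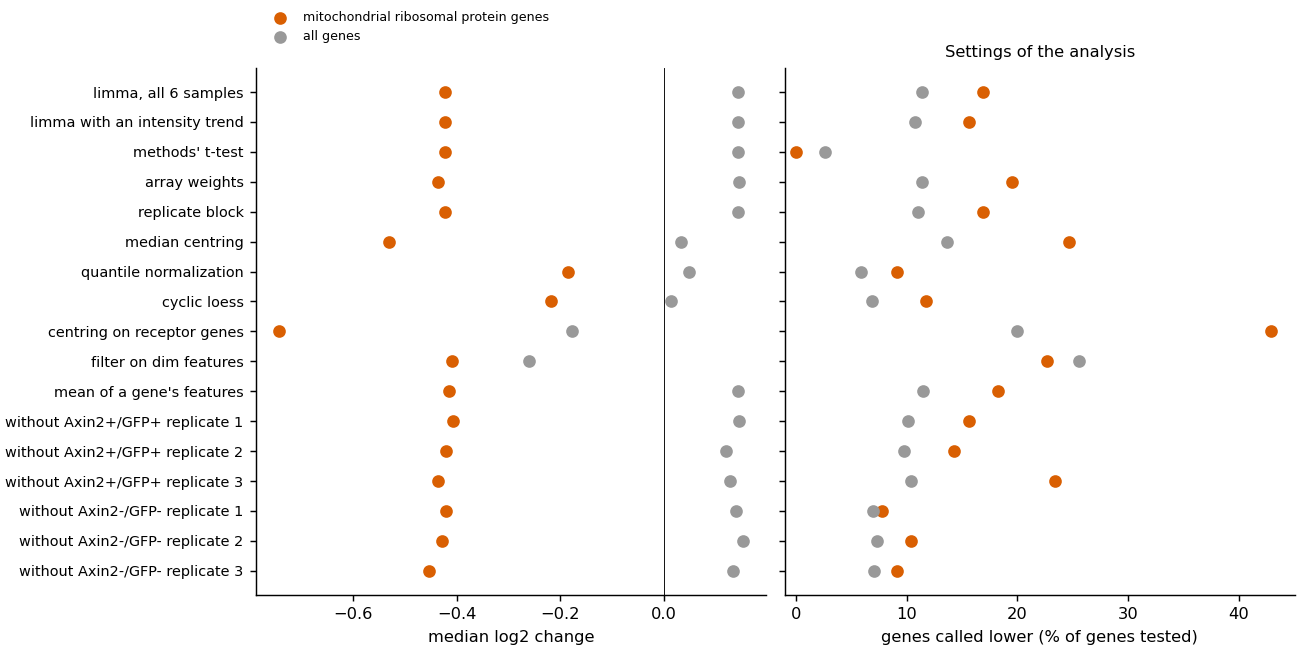
The median log2 change (left) and the share of genes called lower (right, % of genes tested) are plotted for the mitochondrial ribosomal protein genes (orange) and all genes (grey), with 1 row for limma on all 6 samples and 1 for each alternative. The members' median stays below that of all genes in each row and ranges from -0.74 to -0.19, while the share of members called lower ranges from 0 to 42.9%. That share lies below the share of all genes under the methods' t-test (0 against 2.6%) and the filter on dim features (22.7% against 25.6%).

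Markers of blood cells and of mesenchyme differed between the same samples. Over all genes tested, 11.4% were called lower and 4.64% higher. All 12 B-lineage markers fell (12 of 12), with a summed level of 6.57 to 6.69 in Axin2+/GFP+ cells and 10.8 to 11.2 in Axin2-/GFP- cells on the log2 scale. Of 15 neutrophil markers 12 rose and 0 fell, with a summed level of 14.4 to 14.5 in Axin2+/GFP+ cells and 11.6 to 13.3 in Axin2-/GFP- cells. Of 11 mesenchymal markers 3 rose and 0 fell, with a summed level of 11.3 to 11.9 in Axin2+/GFP+ cells and 9.65 to 10.2 in Axin2-/GFP- cells. Of 5 erythroid markers 1 rose and 2 fell, and 1 of 6 macrophage (16.7%) and 1 of 5 endothelial markers (20%) fell. Their summed levels in Axin2+/GFP+ and Axin2-/GFP- cells were 7.01 to 7.04 and 6.87 to 7.99 for the erythroid list, 6.59 to 7.14 and 6.80 to 7.37 for the macrophage list, and 4.74 to 5.05 and 5.84 to 6.31 for the endothelial list. None of these markers lay at or below the median of the receptor genes in either population, 1.80 and 1.46. The receptor level used above for the members, 3.0 and 2.73, is higher. Under it in both populations were the means of Cdh5, Kdr, Emcn and Tek of the endothelial list. The same held for Adgre1, Mrc1 and C1qa of the macrophage list and for Msx2 and Pdgfra of the mesenchymal list. The part of these cell types in the readings of the mitochondrial ribosomal protein genes was not tested.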

How the data were processed

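RNA of the 6 samples was hybridised to Affymetrix whole-transcript arrays, and the authors deposited 1 table of log2 values with a row per feature. RMA and R 3.2.1 stand in the submitters' processing notes. Not given in the sources used here are its level of summary, background correction and annotation release. The columns were used as deposited, and 0 columns were left unmatched to a sample. Of the 35557 features, 21789 carry 1 symbol in the platform's probe table, which gave 19938 genes, and 85 of these features belong to the 77 members. All 77 matched a RefSeq entry by gene identifier, with 0 changed symbols.

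Tests used limma 3.58.1 under R 4.3.3 (lmFit, then eBayes) on all 6 samples, without a block, with Benjamini-Hochberg adjustment over all genes. Samples are biological replicates per the labels, and precision is limited by their number. The procedure was tested on simulated data. The members, lists, tests and the rule for named genes were chosen with earlier results of these data known. That rule takes, for each subunit, up to 6 called genes in each direction with the largest change and no overlap, the 3 with the highest signal and the 2 of largest change against the median's sign. It adds the Mrps18 genes, Mrpl12, Mrpl44, Mrps12, genes with discordant features and the 3 of smallest p in each list. Some genes of the lists were not analysed here, and list sizes count the genes tested. Summed marker levels are the log2 of the sum of linear values. The alternatives were the methods' t-test, an intensity trend, weights per array, a block for the replicate number, quantile normalization, median centring, cyclic loess, centring on receptor genes, a filter at a mean log2 value of 3, the mean of a gene's features and leaving out each sample, with the spread pooled over the rest.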

Additional observations from a re-analysis of the deposited data

How the results depend on the processing

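Under limma on all samples 13 of the 77 members were lower and 0 higher, and 0 were higher under each alternative run. The number lower was 0 with the methods' t-test (at an unadjusted p under 0.05 it gave 19 lower and 1 higher, and limma 28 and 0), 7 after quantile normalization, 33 when centred on receptor genes and 6 to 18 with 1 sample left out. It was 6, 8 and 7 without Axin2-/GFP- replicates 1, 2 and 3. The other alternatives gave 9 to 19. After quantile normalization 7 of the 13 remained and after cyclic loess 7 of 13. Quantile normalization moved the median change of the large subunit to -0.22, cyclic loess to -0.26, median centring to -0.57 and centring on receptor genes to -0.79, and with 1 sample left out it was -0.46 to -0.42. In the same order that of the small subunit was -0.12, -0.15, -0.41 and -0.62, and -0.43 to -0.37 with 1 sample left out. The median of all genes, 0.14, moved to 0.05, 0.01, 0.03 and -0.18. The cause of these differences was not tested.

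Signs turned for 10 named genes, none of them called. Under median centring the change was -0.0275 for Mrpl21, -0.0643 for Mrps16 and -0.0726 for Mrpl44. Under quantile normalization and cyclic loess it was 0.38 and 0.37 for Mrpl12, -0.0540 and -0.0829 for Mrps27, 0.12 and 0.0616 for Mrps18b and 0.19 and 0.15 for Chchd1. Centring on receptor genes gave -0.24 for Mrpl21, -0.0224 for Mrpl47, -0.27 for Mrps16, -0.15 for Mrps27, -0.21 for Mrps2 and -0.28 for Mrpl44. With 1 sample left out the change ran from -0.36 to 0.12 for Mrpl12, -0.21 to 0.4004 for Mrpl21, -0.15 to 0.15 for Mrps16, -0.401 to 0.23 for Mrps18b and -0.0763 to 0.14 for Mrpl44. The mean of its features gave 0.0113 for Mrps5.

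The replicate numbers are shared by both populations in the labels, which do not say whether same-numbered samples came from the same pool. Deviations of same-numbered samples correlated at 0.03, 0.01 and 0.05 across genes, and those of differently numbered samples at -0.05 to 0.02. These small values cannot decide whether the samples are pairs, and the main fit did not take them as pairs. With the replicate number as a block 13 members were lower, 12 of them the same genes. Mrpl54 was no longer called, and among the other named genes neither were Mettl17, Slirp, Ssbp1 and Pnpt1, whose adjusted p in limma ran from 0.0515 to 0.0793, while Mrpl24 was called (adjusted p = 0.0328). The number of arrays and readings near the receptor level limit what could be called.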
